A study of Mus musculus with 1931 samples.

Results

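Epi-like cells of Rosette-to-Lumen stage embryoids (RtL-embryoids) were taken as the 3D wells with a well number from 1 to 8 on plates 3, 4 and 5 that held at least 2500 genes above 0 TPM. These wells made up 22.3% of the 1406 wells of all cultures and 32% of the 3D wells that met the same minimum, and 32.2%, 34.1% and 33.8% of them lay on plates 3, 4 and 5. They were set against the other 3D wells, which have well numbers 9 to 16 (32.1% of the 3D wells) or 17 to 24 (35.9%) and are called here the middle and the right block of the plates. RtL-embryoids are aggregates of 3 mouse embryonic stem cell (ESC) lines that sort themselves into an Epi-like and an ExE-like part inside a VE-like layer, named after the epiblast, the extraembryonic ectoderm and the visceral endoderm of the embryo. The Kermit ESC line carries GFP driven by the *Oct3/4* (*Pou5f1*) promoter. The 5-Factor ESC line holds *Cdx2*, *Eomes*, *Ets2*, *Gata3* and *Tfap2c* as transgenes that doxycycline (DOX) switches on, and mCherry-marked iGATA6 ESCs hold *Gata6* in the same way. The lines were cultured together, so Kermit cells too received DOX, at 2 µg/ml for 3 days, and then a further 24 h without it. Structures were picked by hand, pooled, dissociated and sorted by GFP, mCherry and CD40 staining as single cells for SMART-seq2, and which well columns received which gate is not given in the sources used here.

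The epiblast is the part of the early embryo that gives rise to the body and the germ line, and its cells are pluripotent. Around implantation it moves from a naïve state, marked by factors such as *Zfp42* (*Rex1*) and *Esrrb*, through a formative to a primed state marked by *Otx2*, *Fgf5* and *Dnmt3b*, while it forms a rosette and then a lumen. *Pou5f1*, *Sox2* and *Nanog* uphold pluripotency, Nodal and FGF signals act in the exit from the naïve state, and primordial germ cells (PGCs) later arise from epiblast cells under BMP.

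The 3D wells stem from a single pool and are treated as 1 sample, of which each plate holds a share. Without replicates nothing could be tested, no p-value was computed, and values are given for plates 3, 4 and 5 in that order. Levels are means in TP10k, that is the TPM of a well scaled to a sum of 10000, over all wells of a group, zeros included. TPM is corrected for transcript length, so levels of different genes can be compared roughly. Very short genes and near-identical copies, named below, are exceptions. Of all wells of these columns in the table, 82.2% passed the minimum of genes (95% CI 78% to 85.9%, exact Clopper-Pearson, which like all intervals here covers counting error only). The median number of genes in Epi-like wells was 5710, 4448 and 4199, below the 6652, 5040.5 and 4783 of the other 3D wells. TPM keeps no read number, and the number of genes took the place of depth. The 5 wells just inside the minimum, with 2550 to 2956 genes, all had *Pou5f1* above 0, as did 2 of the 3 wells just outside it, with 2092 to 2368 genes.

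The name of the cells was set against 5 epiblast markers, which the rule had not used. The paper named its Epi-like cluster of the same data by *Pou5f1*, *Nanog*, *Gdf3* and *Tdgf1*, so this is no independent check. *Pou5f1*, which lies on chromosome 17 from 35506018 to 35510772 (GRCm38), averaged 15.6, 14.8 and 12.1 TP10k. It was above 0 in 99.7% of the Epi-like wells (95% CI 98.2% to 100%). Since GFP of the Kermit line is driven by its promoter and GFP was sorted on, its level is tied to the sort. *Tdgf1*, the Nodal coreceptor Cripto, averaged 6.9, 7.09 and 8.52 TP10k and was above 0 in 95.5% of wells (95% CI 92.6% to 97.5%). *Nanog*, a homeobox factor, averaged 4.71, 3.39 and 3.45 TP10k in 92.4%, and *Gdf3*, a TGFβ-family ligand, 1.7, 1.48 and 1.69 TP10k in 87.9%. *Dppa5a*, an RNA-binding protein of pluripotent cells, had the highest mean level over the plates, at 223.1, 228.5 and 261.1 TP10k, next to the ferritin gene *Ftl1* (237.5 and 236.9 TP10k over the plates). All 5 markers were above 0 together in 80.9% of Epi-like wells and at least 4 of them in 95.5%.

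The markers stepped between well columns 8 and 9. *Tdgf1* was above 0 in 0.952% of wells in the middle block and 2.55% in the right block, and *Gdf3* in 4.44% and 3.68%. *Nanog* was above 0 in more of these wells, 24.8% and 31.4%, at mean levels over the plates of 0.0839 and 0.111 TP10k. *Pou5f1* and *Dppa5a* stepped less. In the middle block, where 98.1% of wells had the endoderm factor *Gata4*, *Pou5f1* averaged 4.79, 4.6 and 4.15 TP10k and was above 0 in 90.8% of wells, and *Dppa5a* averaged 71.3, 70.3 and 70.8 TP10k. In the right block, where 61.5% of wells had the trophoblast factor *Cdx2*, *Pou5f1* averaged 0.335, 0.186 and 0.474 TP10k. The medians of *Pou5f1* by well column ranged from 12.1 to 15.7 TP10k in columns 1 to 8, against 3.07 to 5.52 in columns 9 to 16, so the column medians did not overlap.

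**Figure D1:**
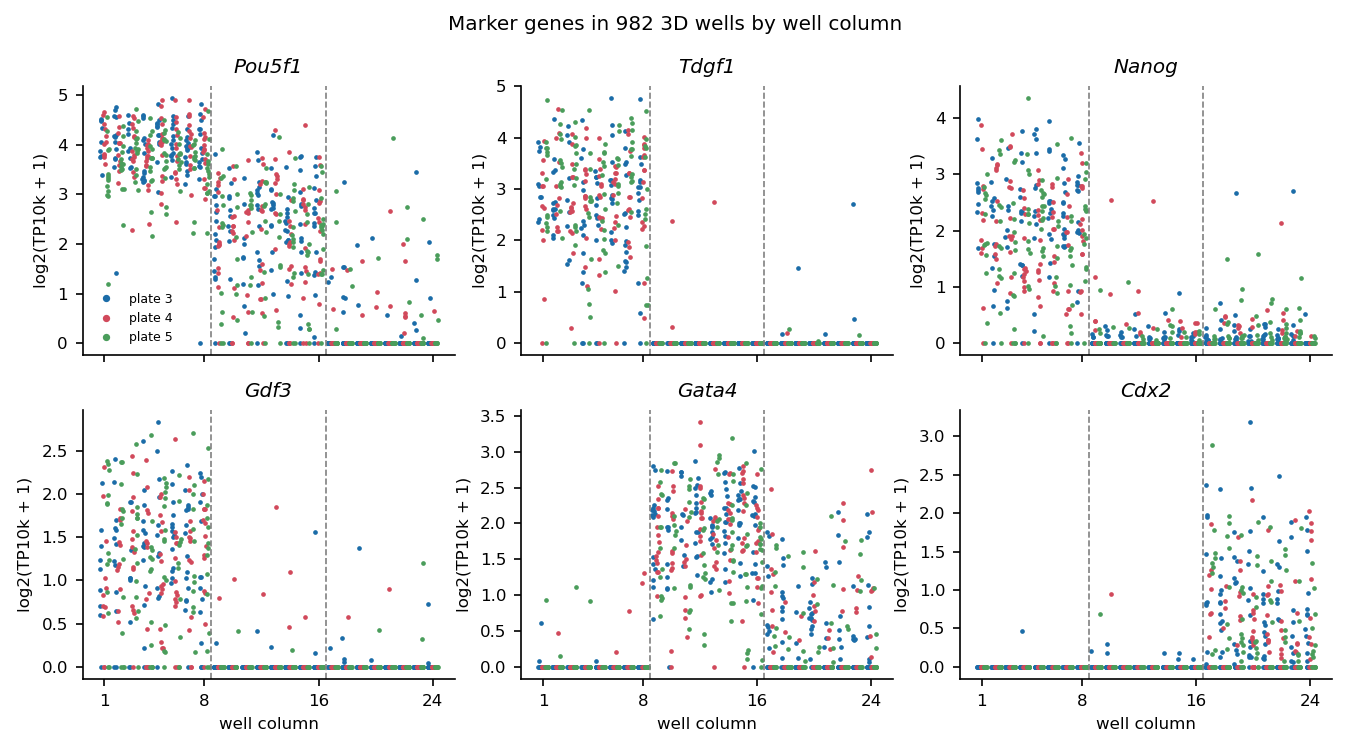
Level of 4 epiblast markers, *Gata4* and *Cdx2* in each 3D well, as log2(TP10k + 1) on the y axis, by well column on the x axis. Each point is a well coloured by plate, and dashed lines stand between columns 8 and 9 and between columns 16 and 17. *Tdgf1*, *Nanog* and *Gdf3* are high in columns 1 to 8, while *Pou5f1* is also above 0 in most wells of columns 9 to 16.

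Most markers of the other cell types were near 0 in the Epi-like wells. All 8 VE markers (*Amn*, *Cubn*, *Gata4*, *Gata6*, *Sox17*, *Dkk1*, *Foxq1* and *Sox7*) were lower, 3 of them than in both blocks. Their summed level was 0.0671 TP10k, against 16 in the middle and 1.4 in the right block, and 88.9% of Epi-like wells had none of them. Of the 8 ExE markers 6 passed the filter described below and 5 were lower, with *Cdx2* above 0 in 0.318% of Epi-like wells and *Elf5* in 5.73%. *Tfap2c*, which also acts in germ cells, was the exception at 0.47, 0.388 and 0.483 TP10k in 39.5% of wells. None of the 5 was lower than in both blocks. The ExE markers summed to 0.636 TP10k in Epi-like wells, 0.204 in the middle and 4.64 in the right block. A marker that passed the filter only through other wells had to come out lower. The levels, not these counts, describe the Epi-like wells. For *Cdx2*, *Tfap2c*, *Eomes*, *Gata3* and *Gata6* the values do not tell transgene from endogenous transcripts. The 8 fibroblast genes, markers of feeder cells, summed to 0.0598 TP10k. A single Epi-like well, on plate 3, lacked *Pou5f1*, *Tdgf1*, *Nanog* and *Gdf3* and had *Elf5*, at 1.6 TP10k. In all, 14 Epi-like wells lacked *Pou5f1* or had *Gata4* or *Cdx2* above 0. In the other direction, 10 wells of the other blocks had at least 4 of the 5 epiblast markers. Without these 10 wells, *Tdgf1* in the middle block averaged 0.000755 TP10k in place of 0.0318, and was above 0 in 1 well in place of 3. CD40, the stained surface protein, is encoded by *Cd40*, which averaged 0.0856, 0.0275 and 0.0254 TP10k in Epi-like wells. It averaged 0.0776, 0.0786 and 0.123 in the middle and 0.736, 0.755 and 0.609 in the right block.

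Across all genes, a gene was counted as higher or lower when its mean differed at least 2-fold, with 0.1 TP10k added to both means, in the same direction on each of the 3 plates. Of 8479 genes with a mean of the group means of at least 0.1 TP10k, 3.41% were higher and 6.4% lower in Epi-like wells than in the other 3D wells. Against the middle and the right block each, 2.12% were higher and 2.04% lower. The median log2 ratio over all genes was -0.03. Log2 ratios below are those of Epi-like wells to all other 3D wells with 0.1 TP10k added, which understates the ratio of low genes.

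**Figure D2:**
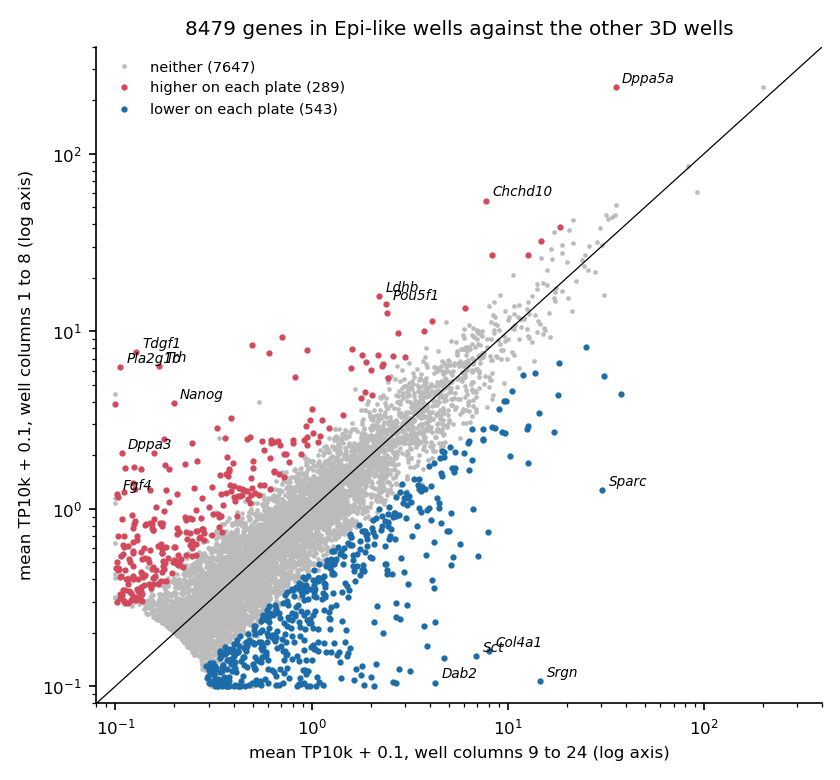
Mean level of 8479 genes in Epi-like wells (y axis) against the other 3D wells (x axis), in TP10k with 0.1 added, on log axes, each the average of the 3 plate means. Genes higher on each plate (3.41%) are red, genes lower on each plate (6.4%) blue and the others grey, and the line marks equal levels.

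The gene with the highest ratio on its weakest plate was *Pla2g1b*, a secreted phospholipase A2. It averaged 5.78, 5.94 and 6.91 TP10k and was above 0 in 79.3% of Epi-like wells, against 0.317% of wells in the middle and 1.42% in the right block. *Tdgf1* followed, with log2 ratios of 5.71, 5.62 and 6.40. *Trh*, which encodes the precursor of thyrotropin-releasing hormone, averaged 8.37, 5.74 and 4.77 TP10k and was above 0 in 74.5% of Epi-like wells, against 1.27% and 0.85%. These 3 genes were thus near 0 in both other blocks. *Igfbp2*, which binds insulin-like growth factors, averaged 8.97, 8.85 and 7.09 TP10k, with log2 ratios of 3.62 to 4.37. *Ifitm3* (*Fragilis*), an interferon-induced membrane protein known from early germ cells, averaged 9.08, 10.4 and 7.92 TP10k, with log2 ratios of 3.43 to 3.96.

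The other genes among the 15 with the highest ratios were *Nanog*, *Gdf3*, *Dppa3*, *Fgf4*, the microRNA gene *Mir363*, the noncoding RNA *Halr1*, *Mymx*, *Sept1*, *Pipox* and *Enpp3*. *Fgf4*, the growth factor that epiblast cells send to the extraembryonic ectoderm, averaged 1.1, 1.12 and 1.13 TP10k and was above 0 in 86.6% of Epi-like wells. It was above 0 in 0.317% of wells in the middle block and listed at 0 in the whole right block, where 3 wells of the total, taken as the limit for a count of 0, would be 0.85% (exact Clopper-Pearson upper bound 1.04%). Such limits concern wells in which the gene is detected, not wells that express it. *Mymx*, the myoblast fusion factor Myomixer, averaged 2.08, 2.16 and 1.67 TP10k in 64.6% of wells. *Halr1* averaged 1.54, 1.48 and 1.79 TP10k in 47.1%, and *Sept1*, a septin, 2.27, 2.19 and 2.65 TP10k in 68.2%. *Pipox*, a peroxisomal oxidase, averaged 1.1, 1.2 and 1.12 TP10k, and *Enpp3*, a nucleotide pyrophosphatase of the cell surface, 1.24, 1.65 and 1.84 TP10k. *Mir363* entered this group through 2.23% of the wells, and since TPM divides by length, a short gene can reach a high value in a single well.

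Among the most abundant of the higher genes, *Chchd10*, a protein of the mitochondrial intermembrane space, averaged 57.8, 61.7 and 43.8 TP10k in Epi-like wells, 6.62, 7.84 and 5.65 in the middle and 9.64, 8.74 and 7.05 in the right block. It was above 0 in 100% of Epi-like wells, and its log2 ratios were 2.75 to 2.88. *Mkrn1*, a ubiquitin ligase, averaged 12.4, 12.7 and 12.7 TP10k against 2.3, 2.3 and 2.38 in the other 3D wells. *Ifitm2*, of the same family as *Ifitm3*, averaged 27.3, 28.2 and 24.6 TP10k, 3.41, 2.91 and 2.87 in the middle and 13.7, 12.9 and 11.7 in the right block, against which it was not 2-fold apart on plate 3 (log2 ratio 0.99). *Chchd10*, *Mkrn1*, *Ifitm2* and *Cd40* were named after their values had been seen.

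The 10 genes with the lowest ratios were *Srgn*, *Col4a1*, *Dab2*, *Sct*, *Pla2g7*, *Sparc*, *Cited1*, *Ctsh*, *Amn* and *Aqp8*. *Srgn*, the proteoglycan serglycin, averaged 0.00545, 0.015 and 0 TP10k in Epi-like wells and 29.8, 29.1 and 28.3 in the middle block. *Sparc*, a matrix glycoprotein, averaged 1.47, 1.1 and 0.941 TP10k and 72.1, 59 and 46.8 there. *Sct*, the hormone secretin, averaged 0.0372, 0.0651 and 0.0399 TP10k and 18.7, 9.78 and 9.89 in the right block. *Sct* and *Pla2g7* were thus near 0 in the middle block too, while the 8 others were lower than in both blocks. *Cited1*, a transcriptional coregulator, averaged 0.0315, 0 and 0.0337 TP10k against 3.24, 3.25 and 3.45 in the middle and 3.08, 3.2 and 2.32 in the right block. *Aqp8*, a water channel, was listed at 0 in every Epi-like well, with a limit for detection of 0.955% by 3 wells of the total and of 1.17% by the exact Clopper-Pearson bound, and averaged 4.12, 3.63 and 3.9 TP10k in the middle block.

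The 24 gene lists were read against these shares. Of the listed genes 78.7% passed the filter on low values, and 15.6% of those that passed were higher and 16.4% lower. A gene that passed only through the group where it is high had to differ, so these shares describe the genes that passed and not the whole lists. The same holds for the counts of VE, ExE and parietal endoderm markers. Listed genes with values below include the counted ones and others chosen after their values had been seen. Of the 14 core pluripotency genes, all of which passed, 10 were higher (*Pou5f1*, *Sox2*, *Nanog*, *Tdgf1*, *Gdf3*, *Utf1*, *Fgf4*, *Dppa4*, *Dppa5a* and *Zfp42*) and none lower, with a median log2 ratio of 2.18. Of these 10, 9 were higher than in both blocks. The epiblast markers used above are all on this list and are counted again here. *Nanog* also stands on the naïve list, and *Gdf3* and *Tdgf1* on the Nodal list. *Utf1*, a chromatin protein of pluripotent cells, averaged 7.93, 8.93 and 6.77 TP10k against 1.57, 1.65 and 1.32 in the other 3D wells. *Sox2* averaged 1.28, 0.882 and 0.992 TP10k against 0.0119, 0.0503 and 0.00535 in the middle and 0.353, 0.248 and 0.334 in the right block. The 4 others were *Sall4*, *Lin28a*, *Dppa2* and *Trim28*. Of these *Sall4*, a zinc finger factor, averaged 2.61, 2.49 and 2.91 TP10k against 2.14, 1.87 and 2.88, and *Dppa2* had log2 ratios of 0.93, 0.98 and 1.11.

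**Figure D3:**
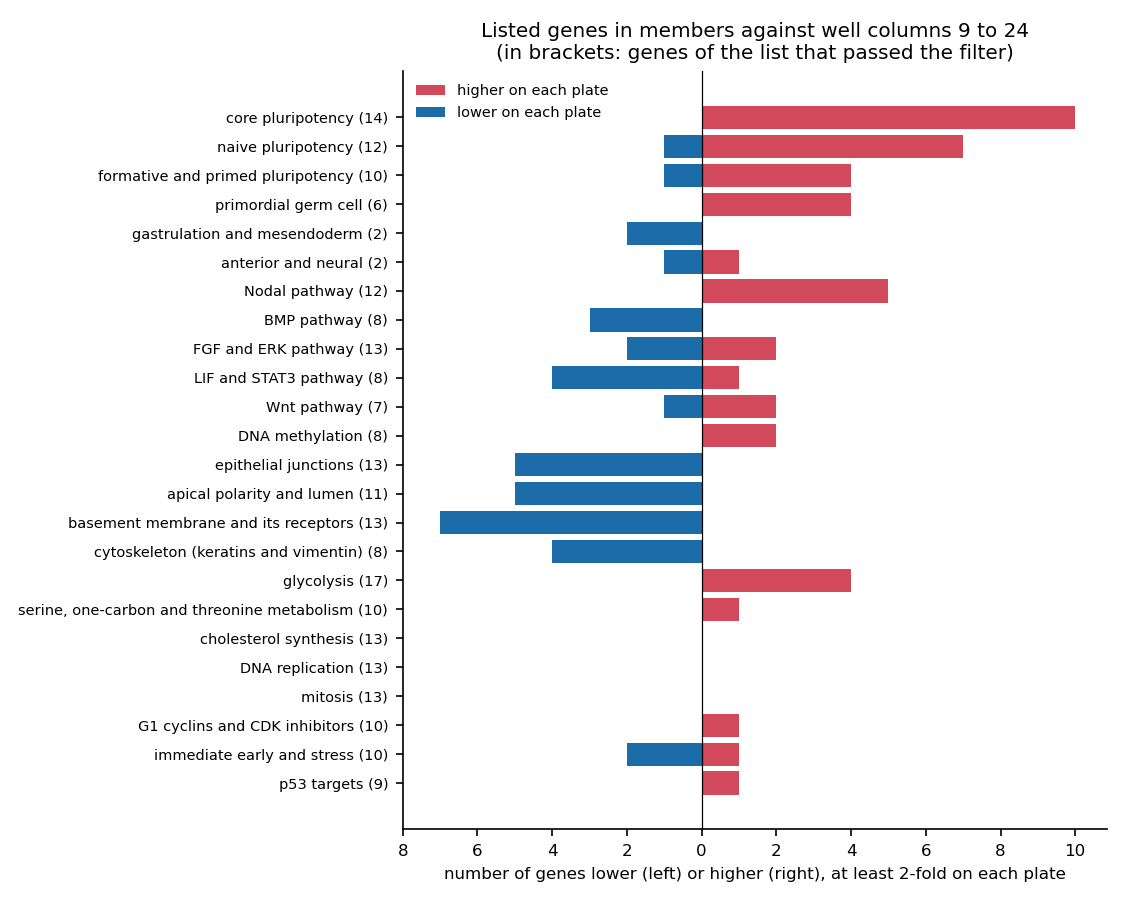
Number of genes of each of the 24 lists that were at least 2-fold lower (blue, left) or higher (red, right) in Epi-like wells on each of the 3 plates, with the number that passed the filter in brackets. Core pluripotency has 10 genes on the right and the basement membrane list 7 on the left, and the lists of cholesterol synthesis, DNA replication and mitosis have none on either side.

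The start sites of the higher genes were searched on both strands for the octamer ATGCAAAT, which POU-family factors such as the product of *Pou5f1* bind. The windows run from 250 bases before to 50 bases after each start in RefSeq (GRCm38.p6), and 77.9% of the higher genes and 79.1% of all genes counted have one. Since this is less than 80%, a comparison of the share with the octamer between the sets is void. The octamer was found in 1.45% of the 6707 genes with a window. Most of the higher genes with a window do not hold the octamer, among them *Pou5f1*, *Nanog*, *Fgf4*, *Trh*, *Pla2g1b*, *Igfbp2* and *Ifitm3*. Among the higher genes it was found in *Chchd10*, *Gadd45a*, *Hmga1*, *Mef2b*, *Pipox*, *Zfp296*, *Zfp42* and *Zfp428*. Shown are the windows of *Chchd10*, the most abundant of the 8, of *Zfp42* and *Zfp296*, which encode zinc finger proteins of pluripotent cells, and of the marker *Tdgf1*, which does not hold it. They lie at chr10:75932880-75933179 (plus strand), chr8:43306960-43307259 (minus), chr7:19577037-19577336 (plus) and chr9:110946109-110946408 (minus). Each is written 5′ to 3′ along the gene, with the octamer or its reverse complement in capitals.
Chchd10: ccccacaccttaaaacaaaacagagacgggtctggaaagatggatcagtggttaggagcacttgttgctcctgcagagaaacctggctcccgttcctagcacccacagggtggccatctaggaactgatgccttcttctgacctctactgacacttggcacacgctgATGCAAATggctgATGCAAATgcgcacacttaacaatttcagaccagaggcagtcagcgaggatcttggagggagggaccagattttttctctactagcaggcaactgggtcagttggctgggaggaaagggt
Zfp42: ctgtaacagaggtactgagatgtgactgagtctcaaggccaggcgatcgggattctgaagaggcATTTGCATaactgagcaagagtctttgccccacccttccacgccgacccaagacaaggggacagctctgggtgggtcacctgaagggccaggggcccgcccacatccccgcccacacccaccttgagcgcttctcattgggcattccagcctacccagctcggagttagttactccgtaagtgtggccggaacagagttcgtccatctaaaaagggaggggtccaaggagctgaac
Zfp296: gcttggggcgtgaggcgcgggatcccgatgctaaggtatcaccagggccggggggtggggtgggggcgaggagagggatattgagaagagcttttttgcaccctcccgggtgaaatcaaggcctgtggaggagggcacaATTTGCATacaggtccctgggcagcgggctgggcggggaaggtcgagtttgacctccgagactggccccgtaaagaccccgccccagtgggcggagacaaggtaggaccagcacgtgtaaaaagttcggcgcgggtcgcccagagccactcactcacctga
Tdgf1: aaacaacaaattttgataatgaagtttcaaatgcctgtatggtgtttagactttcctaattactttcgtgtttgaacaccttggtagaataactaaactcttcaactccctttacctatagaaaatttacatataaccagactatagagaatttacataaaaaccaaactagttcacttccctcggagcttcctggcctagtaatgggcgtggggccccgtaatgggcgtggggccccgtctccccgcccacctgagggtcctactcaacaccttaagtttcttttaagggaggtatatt
The *Chchd10* window holds the octamer 2 times. *Zfp42* averaged 4.75, 3.67 and 4.99 TP10k in 92.7% of Epi-like wells, against 1.93, 1.6 and 1.78 TP10k in the other 3D wells. *Zfp296* averaged 0.375, 0.416 and 0.421 TP10k against 0.114, 0.11 and 0.063. A match says only that these letters stand in the window.

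The 14 genes of the naïve list went different ways. Of the 12 that passed the filter 7 were higher (*Nanog*, *Fbxo15*, *Zfp42*, *Dppa3*, *Klf2*, *Nr0b1* and *Tcl1*) and *Klf5* was lower, with a median log2 ratio of 1.38. Of these 7, 5 were higher than in both blocks. *Nr0b1* (*Dax1*), an orphan nuclear receptor, averaged 2.68, 2.59 and 3.03 TP10k against 0.268, 0.186 and 0.236. *Klf2* averaged 0.564, 0.462 and 0.411 TP10k and was above 0 in 61.8% of Epi-like wells, against 4.76% and 2.83% of wells in the middle and right blocks. *Klf5* averaged 0.77, 0.534 and 0.646 TP10k against 1.97, 1.63 and 1.62 in the other 3D wells. The Krüppel-like factors were thus split, with *Klf2* higher in Epi-like wells and *Klf5* lower. *Klf4* averaged 0.101, 0.149 and 0.164 TP10k, with log2 ratios of -0.92, -0.34 and -0.65, and was above 0 in 32.2% of Epi-like wells. *Esrrb*, an orphan receptor of the naïve network, averaged 0.907, 0.645 and 0.81 TP10k, with 0.0634, 0.0663 and 0.0471 in the middle and 0.523, 0.469 and 0.425 in the right block, and *Tfcp2l1* had log2 ratios of 0.15, 0.01 and 0.46.

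Of the 18 formative and primed genes 10 passed the filter, with 4 higher (*Nodal*, *Otx2*, *Dnmt3a* and *Etv5*), *Foxa2* lower and a median log2 ratio of 0.81. Of these 4, 3 were higher than in both blocks. *Otx2*, a homeobox factor that marks the exit from the naïve state, averaged 0.684, 0.907 and 0.682 TP10k. It was above 0 in 53.5% of Epi-like wells (54.5%, 58.9% and 47.2% on the plates), against 0.317% and 5.38% in the other blocks. *Dnmt3a*, a de novo DNA methyltransferase, averaged 2.78, 3.77 and 3.3 TP10k against 1.29, 1.35 and 1.4. Its partner *Dnmt3b* was not 2-fold apart, at 1.07, 1.28 and 0.961 TP10k in Epi-like wells, 1.07, 1.11 and 1.33 in the middle and 0.691, 0.741 and 0.593 in the right block. *Fgf5*, a marker of primed epiblast, was above 0 in 16.2% of Epi-like wells (95% CI 12.3% to 20.8%), and *Lef1*, a Wnt effector, in 17.8%. Gastrulation genes were near 0, with *T* (Brachyury) above 0 in 0.637% of Epi-like wells (95% CI 0.0772% to 2.28%) and 2 of the 11 genes listed at 0 in every well. The 2 that passed the filter, *Eomes* and *Foxa2*, were lower. In the anterior and neural list 2 of 8 genes passed, of which *Otx2* was higher and *Hesx1* lower, at 0.0482, 0.0555 and 0.012 TP10k against 0.626, 0.74 and 1.16 in the middle block.

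Of the 10 PGC genes 6 passed the filter and 4 were higher (*Dppa3*, *Nanos3*, *Ifitm3* and *Tcl1*), 3 of them than in both blocks, with a median log2 ratio of 1.93. *Dppa3* (*Stella*), which is also a naïve gene, averaged 2.32, 1.94 and 1.65 TP10k in 36.3% of Epi-like wells (95% CI 31% to 41.9%), against 0.635% and 1.13% of wells in the other blocks. *Nanos3*, an RNA-binding protein of germ cells, was above 0 in 8.92% of wells, at 12.9%, 7.48% and 6.6% on the plates. *Prdm14* was above 0 in 16.2% (95% CI 12.3% to 20.8%) and *Prdm1* (*Blimp1*) in 17.5% (95% CI 13.5% to 22.2%), and both were under the filter. Of the 3 transcription factors known for germ cell specification, *Tfap2c* was thus seen in the most wells, at 39.5% (95% CI 34% to 45.1%).

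**Figure D4:**
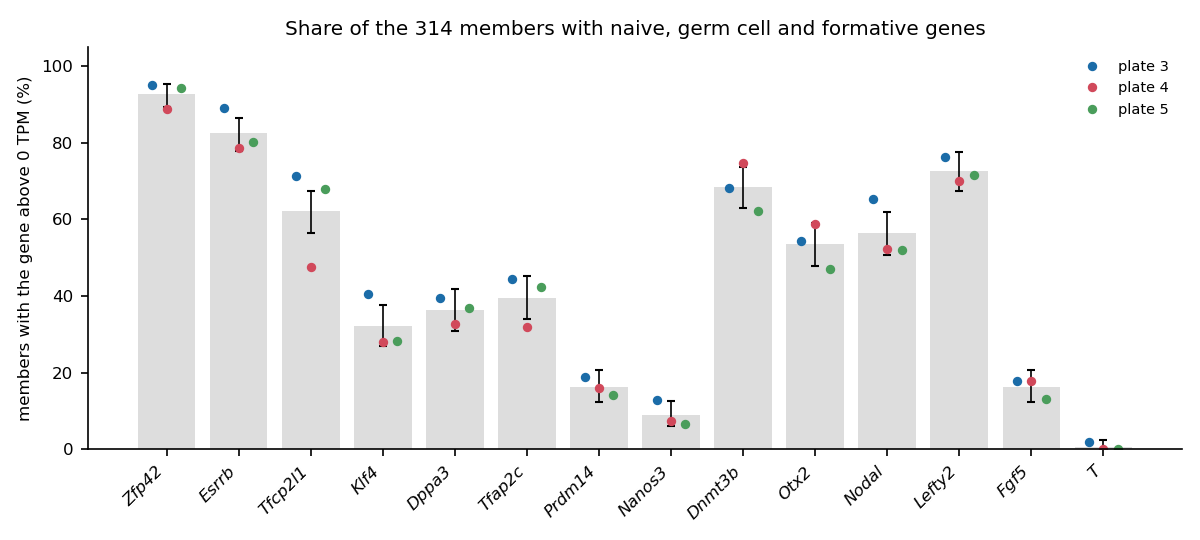
Share of the Epi-like wells with a gene above 0 TPM, in percent, for genes of the naïve, germ cell and formative lists, with *T* for comparison. Bars are all wells, error bars exact 95% confidence intervals and points the 3 plates. *Zfp42* is seen in 92.7% of wells, *Otx2* in 53.5%, *Tfap2c* in 39.5% and *Fgf5* in 16.2%.

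Of the 12 of 18 Nodal pathway genes that passed the filter 5 were higher and none lower, with a median log2 ratio of 0.64, and the 5 (*Nodal*, *Gdf3*, *Tdgf1*, *Lefty1* and *Lefty2*) were higher than in each of the other blocks. *Nodal* averaged 0.483, 0.536 and 0.464 TP10k in 56.4% of Epi-like wells, against 0.0737, 0.0829 and 0.0639 in the other 3D wells. Its feedback antagonists were more abundant, with *Lefty1* at 2.14, 2.75 and 1.88 TP10k and *Lefty2* at 3.74, 2.38 and 3.37, against 0.187, 0.118 and 0.135 and 0.269, 0.35 and 0.24. No receptor or SMAD of the list was counted. The receptor *Acvr2b* averaged 0.683, 0.46 and 0.445 TP10k with log2 ratios of 0.09 to 0.61, and the cofactor *Foxh1* 0.606, 0.757 and 0.523 TP10k with log2 ratios of -0.11 to 0.43.

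In the FGF list 2 of the 13 genes that passed were higher, *Fgf4* and *Etv5*, and 2 lower, *Fgf10* and *Fgfr2*, with a median log2 ratio of 0.62. *Etv5*, a transcription factor induced by FGF signals, averaged 1.23, 1.23 and 1.03 TP10k against 0.351, 0.249 and 0.266. *Spry2*, a feedback inhibitor of the pathway, averaged 2.71, 2.67 and 4.43 TP10k with log2 ratios of 0.68 to 0.84, and *Dusp6*, a phosphatase of ERK, 0.905, 1.04 and 0.846 TP10k with ratios of 0.76 to 1.02. The receptors differed by block. *Fgfr1* averaged 0.609, 0.448 and 0.617 TP10k in Epi-like wells, 0.0667, 0.0246 and 0.0221 in the middle and 0.997, 0.915 and 0.92 in the right block, while *Fgfr2* averaged 0.0831, 0.0914 and 0.0813, 0.566, 0.266 and 0.456 and 0.589, 0.957 and 0.771 in the same order.

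Of the 8 BMP genes that passed 3 were lower (*Bmp8b*, *Id1* and *Id2*) and none higher, with a median log2 ratio of -1.07 and 1 lower than in both blocks. *Id2*, an inhibitor of helix-loop-helix factors that BMP induces, averaged 0.349, 0.409 and 0.393 TP10k against 0.566, 0.577 and 0.513 in the middle and 8.66, 8.56 and 9.78 in the right block. *Id1* averaged 0.439, 0.434 and 0.252 TP10k against 1.94, 1.69 and 0.946 in the other 3D wells, and *Bmp4*, a ligand, had log2 ratios of -0.66, -0.79 and -1.62. Of 8 LIF and STAT3 genes 4 were lower (*Jak1*, *Stat3*, *Socs3* and *Bcl3*) and *Pim1* was higher, with a median of -0.99 and 1 lower than in both blocks. *Stat3* averaged 0.313, 0.179 and 0.138 TP10k against 1.22, 0.98 and 0.904, and its target *Socs3* 0.0836, 0.060 and 0.0402 against 0.313, 0.303 and 0.189. In the Wnt list 7 genes passed, of which *Tcf7* and the secreted modulator *Sfrp1* were higher and the antagonist *Dkk1* was lower, with a median of 0.70. Neither *Tcf7* nor *Sfrp1* was higher than in both blocks.

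Of the 8 DNA methylation genes that passed 2 were higher, *Dnmt3a* and *Tet1*, and none lower, with a median log2 ratio of 0.40. Of these 2, 1 was higher than in both blocks. *Tet1*, which oxidizes methylcytosine, averaged 2.15, 2.04 and 2.7 TP10k in 95.9% of Epi-like wells, against 0.556, 0.583 and 0.594 in the other 3D wells. *Dnmt3l*, a cofactor of de novo methylation, averaged 1.79, 1.76 and 1.64 TP10k in Epi-like wells, 2.5, 3.13 and 2.61 in the middle and 0.279, 0.336 and 0.43 in the right block. *Tet1* was thus highest in Epi-like wells and *Dnmt3l* in the middle block.

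The adhesion, polarity, matrix and cytoskeleton lists had lower members and no higher ones. Of the 13 junction genes that passed 5 were lower (*Cdh1*, *Cldn3*, *Cldn6*, *Cldn7* and *F11r*), with a median log2 ratio of -0.85, and 2 of them were lower than in both blocks. *Cdh1* (E-cadherin) averaged 0.351, 0.342 and 0.33 TP10k, against 0.681, 0.579 and 0.743 in the middle and 1.77, 1.44 and 1.66 in the right block. *Ctnnb1* (β-catenin) averaged 5.32, 5.44 and 6.51 TP10k against 5.56, 5.85 and 6.17 in the other 3D wells. The tight junction gene *Cldn4* lay between the blocks, at 2.22, 1.99 and 2.16 TP10k in 80.9% of Epi-like wells, 0.0544, 0.115 and 0 TP10k in the middle and 7.78, 8.09 and 9.37 in the right block. Its log2 ratio to both blocks together turned from -1.04 to 0.16 when means of ln(TP10k + 1) were used. Of the 11 polarity and lumen genes 5 were lower (*Podxl*, *Ezr*, *Slc9a3r1*, *Rab11a* and *Myo5b*), with a median of -0.99 and 1 lower than in both blocks. *Podxl* (podocalyxin), the antiadhesive protein of the lumen, averaged 0.0784, 0.0498 and 0.103 TP10k in 23.9% of Epi-like wells, 0.586, 0.667 and 0.848 TP10k in the middle and 0.0798, 0.195 and 0.103 in the right block. *Rab11a*, a GTPase of recycling endosomes, averaged 3.37, 3.14 and 3.53 TP10k against 13.3, 14.9 and 14.8 in the other 3D wells.

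Of the 13 basement membrane genes and receptors that passed 7 were lower (*Lama1*, *Lamb1*, *Lamc1*, *Col4a1*, *Col4a2*, *Hspg2* and *Itgb1*), with a median log2 ratio of -1.28. Of these 7, *Col4a1* and *Itgb1* were lower than in both blocks, and the list summed to 3.94 TP10k in Epi-like wells, 42.8 in the middle and 7.22 in the right block. *Col4a1*, a collagen IV chain, averaged 0.0502, 0.0642 and 0.0571 TP10k against 16.3, 14.4 and 18 in the middle and 0.464, 0.739 and 0.522 in the right block, and the laminin chain *Lama1* 0.00898, 0.00603 and 0.0111 against 3.02, 3.14 and 3.37 and 0.0858, 0.0877 and 0.0609. The integrin *Itga6* was not counted, at 0.581, 0.568 and 0.561 TP10k against 0.277, 0.246 and 0.339 in the other 3D wells. In the cytoskeleton list *Krt8*, *Krt18*, *Krt19* and *Tmsb4x* were lower of 8 genes, with a median of -1.23 and 2 lower than in both blocks, and the keratin *Krt8* averaged 0.0908, 0.0701 and 0.193 TP10k against 3.7, 4.1 and 3.16. All 6 parietal endoderm markers that passed were lower, 3 of them than in both blocks, and *Thbd* and *Snai1* were under the filter. The markers summed to 1.46 TP10k in Epi-like wells, 117.4 in the middle and 7.12 in the right block.

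In glycolysis 4 of 17 genes were higher (*Eno1*, *Pkm*, *Ldhb* and *Pdk1*) and none lower, with a median log2 ratio of 0.29. Of these 4, 3 were higher than in both blocks. *Pkm* was not 2-fold apart from the right block, with log2 ratios of 0.89, 0.95 and 0.81. *Ldhb*, a subunit of lactate dehydrogenase, averaged 15, 15.4 and 16.4 TP10k in Epi-like wells, 0.611, 0.717 and 0.522 in the middle and 3.57, 3.51 and 3.22 in the right block. Its counterpart *Ldha* averaged 13.5, 13.5 and 10.9 TP10k against 16.6, 17.3 and 14.8 in the other 3D wells, so *Ldhb* was 2-fold apart and *Ldha* was not. *Pdk1*, a kinase that holds back pyruvate oxidation, averaged 1.53, 1.47 and 1.56 TP10k against 0.304, 0.282 and 0.252. *Eno1* and *Pkm* averaged 31, 34.4 and 31.3 and 27.9, 27.7 and 25 TP10k, with log2 ratios of 1.11 to 1.18 and 1.03 to 1.17, and reads of *Eno1* can be split with its near-identical copy *Eno1b*. *Tdh*, the threonine dehydrogenase known from mouse ESCs, was the higher gene of 10 in the list of serine and threonine metabolism, whose median was 0.15. It averaged 7.0, 5.68 and 6.24 TP10k in Epi-like wells, 4.87, 4.46 and 3.63 in the middle and 0.319, 0.349 and 0.112 in the right block, where 7.65% of wells had it.

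None of 13 genes each for DNA replication, mitosis and cholesterol synthesis was 2-fold apart on each plate, with median log2 ratios of 0.62, -0.24 and 0.28. *Mcm6*, a subunit of the replicative helicase, averaged 2.37, 2.89 and 2.83 TP10k against 1.18, 1.22 and 1.27, and *Top2a*, a topoisomerase, 2.06, 2.43 and 3.06 against 2.03, 2.2 and 3.11. The cyclin *Ccnd1* was the higher gene of 10 in the G1 list (median -0.08), at 0.853, 0.638 and 0.532 TP10k in 65.6% of Epi-like wells, against 4.13% and 7.37% of wells in the other blocks. *Trp53*, which encodes p53, was the higher gene of 9 in the p53 list (median 0.37), at 7.21, 7.57 and 6.82 TP10k against 2.8, 2.52 and 2.21. Its target *Cdkn1a* was not counted, with log2 ratios of -0.39, -0.51 and -0.84. Of 10 immediate early and stress genes (median -0.11) *Gadd45a* was higher, at 1.63, 1.73 and 1.45 TP10k against 0.449, 0.374 and 0.384, and *Junb* and *Atf3* were lower.

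Of 4 Y-linked genes *Eif2s3y* and *Uty* passed the filter, and *Eif2s3y* was higher. *Uty* was not counted, with log2 ratios of 0.65, 0.66 and 0.64, and was above 0 in 28.3%, 10.8% and 13.3% of Epi-like, middle and right wells. *Eif2s3y* averaged 0.485, 0.497 and 0.599 TP10k and was above 0 in 36.3% of Epi-like wells (95% CI 31% to 41.9%), against 2.86% and 1.42% of wells in the other blocks. Of the genes under the filter, *Ddx3y* was above 0 in 17.2%, against 2.54% and 1.13%, and *Kdm5d* in 20.1%, 19.7% and 20.1%. ESC line and block of the plates cannot be told apart in these data.

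Epi-like cells also varied among themselves. Over the 2163 genes with a mean of at least 1 TP10k, the median SD of ln(TP10k + 1) between wells was 0.51, 0.58 and 0.60 on plates 3, 4 and 5. The 10 genes with the highest SD on their least variable plate were *Mylpf*, *Snord65*, *Trh*, *Spp1*, *Mt1*, *Ldha*, *Ifitm1*, *Pla2g1b*, *Upp1* and *Hmga1b*. *Mylpf*, a myosin light chain known from fast muscle, had SDs of 1.15, 1.29 and 1.11, with 0 TP10k at the tenth percentile of wells, 4.48 at the median and 19 at the ninetieth. *Trh* had SDs of 1.17, 1.10 and 1.03 and ran from 0 through 3.33 to 17.6 TP10k at the same percentiles, and *Spp1* (osteopontin) from 0 through 7.94 to 29.4. *Pla2g1b* and *Trh* thus stand both among the genes with the highest ratios and among the most variable genes. *Snord65*, a small nucleolar RNA, was above 0 in 9.87% of wells and reached 348.4, 495.3 and 469.6 TP10k in single wells, and reads of *Hmga1b* can be split with its near-identical copy *Hmga1*.

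The naïve and the formative lists, which share no gene, ran against each other across Epi-like wells. Spearman's rho between their mean ln(TP10k + 1) was -0.50 over all wells and -0.49, -0.63 and -0.30 on plates 3, 4 and 5. The wells share their pool, and rho with the number of genes on the plates was 0.15, -0.05 and 0.05 for the naïve and 0.20, 0.24 and 0.37 for the formative list. On plate 5 the latter was larger in size than the rho between the lists. *Zfp42* and *Dnmt3b* had rho of -0.43, -0.58 and -0.32 on the plates. Some other pairs from these lists were weaker. *Zfp42* and *Otx2* had rho of -0.09, -0.35 and -0.27, and *Klf4* and *Nodal* -0.08, -0.10 and -0.02. In the few wells without *Zfp42*, *Dnmt3b* averaged 3.22 TP10k and was above 0 in 87%, and in wells with it 0.937 TP10k and 67%. *Fgf5* ran with *Dnmt3b*, at rho of 0.32, 0.33 and 0.38, and with *Otx2*, at 0.22, 0.33 and 0.25. *Fgf5* was above 0 in 24.4% of the wells with *Otx2* and in 6.85% of those without it.

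*Dppa3* and *Tfap2c* tended to be seen in the same wells. Both were above 0 in 25.5% of Epi-like wells, and *Tfap2c* was seen in 70.2% of the wells with *Dppa3* and in 22% of the wells without it. Their rho was 0.61, 0.63 and 0.35 on plates 3, 4 and 5. The naïve and PGC lists share 3 genes (*Dppa3*, *Prdm14* and *Tcl1*), and without these genes the rho of the lists was 0.31, 0.39 and 0.07. *Trh* averaged 3.76 TP10k where *Dppa3* was present and 7.69 where it was not, and 8.12 where *Otx2* was present and 4.11 where it was not. The rho of *Trh* was -0.29, -0.29 and -0.30 with *Dppa3* and 0.44, 0.29 and 0.31 with *Otx2*.

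**Figure D5:**
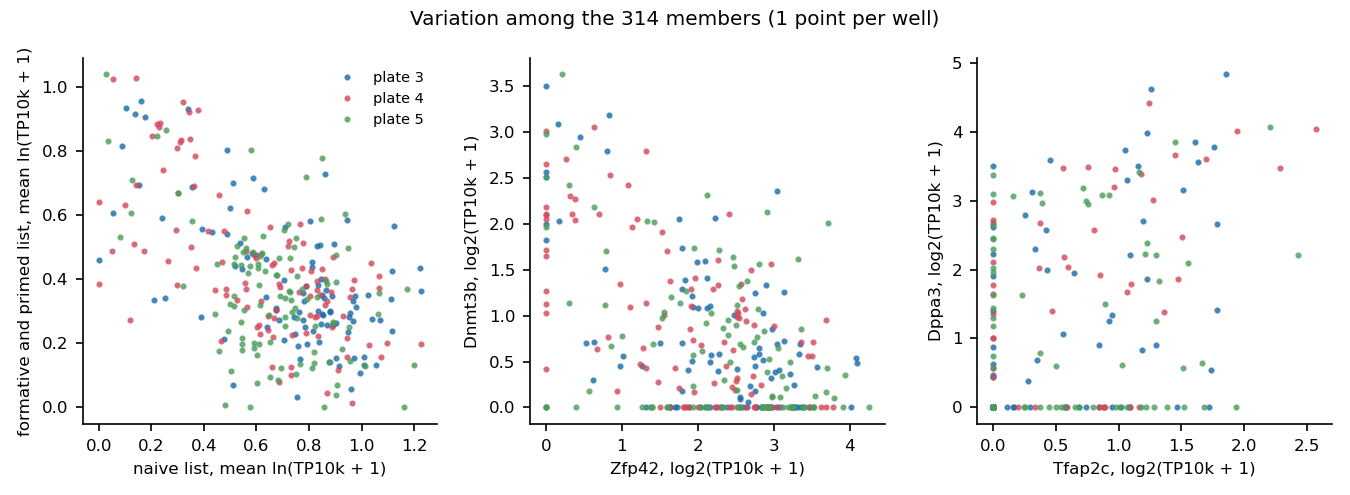
Each point is an Epi-like well, coloured by plate. Left, mean ln(TP10k + 1) of the naïve list (x) and of the formative and primed list (y), and middle and right, *Zfp42* (x) against *Dnmt3b* (y) and *Tfap2c* (x) against *Dppa3* (y) as log2(TP10k + 1), where wells high in the naïve list or in *Zfp42* tend to be low on the other axis and *Dppa3* is above 0 mostly where *Tfap2c* is.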

How the data were processed

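Single cells of 1 pool of RtL-embryoids were measured by SMART-seq2 on 3 plates. The authors demultiplexed reads with bcl2fastq 2.20 and pseudoaligned them to the GRCm38 transcriptome (Gencode vM16) with kallisto, and they deposited gene-level TPM for 20999 genes in 1931 wells, from which mitochondrial, ribosomal and pseudogenes had been filtered per their methods. Of 1149 3D wells 982 had at least 2500 genes above 0 TPM, of which 314 were Epi-like (101, 107 and 106 on plates 3, 4 and 5), 315 lay in well columns 9 to 16 and 353 in columns 17 to 24. Each was scaled to a sum of 10000 (TP10k). Group means per plate were compared as log2 ratios with 0.1 TP10k added, for genes whose mean of the group means was at least 0.1 TP10k, which left 8479 genes, 289 higher, 543 lower, 180 higher and 173 lower than in both blocks. No test was run, since the pool is 1 sample, and no doublet caller was used. The depth per well is unknown beyond its number of genes, and wells were not thinned.

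The members and gene lists were chosen with earlier results of these data known. Named genes are the 5 markers, listed genes the study names, the most abundant examples of each list, the 15 highest and 10 lowest log2 ratios by their weakest plate among genes with at least 1 TP10k in either group on each plate, and the 10 most variable genes. Others are said to be named after their values were seen. A gene withheld here is not reported. Positions are from Gencode vM21 and promoters from RefSeq (GRCm38.p6). Steps were tested on simulated data. Python 3.11.15, numpy 2.4.6, pandas 2.3.3, scipy and matplotlib were used. Alternatives were another minimum of genes, genes counted from 1 TPM, TPM as deposited, other pseudocounts, the mean of ln(TP10k + 1), no filter on low values, wells of 4000 to 6000 genes, leaving out wells whose markers went against their columns, each plate or the columns at the block borders, and a 4-fold threshold. Leaving out 10 wells of columns 9 to 24 with at least 4 epiblast markers was chosen after seeing the data.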

Additional observations from a re-analysis of the deposited data

How the results depend on the processing

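Counts of genes, given here as a percentage of the 8479 genes counted, moved most with the added constant. With 1 TP10k added, 0.637% were higher and 1.16% lower in Epi-like wells, 0.46% higher and 0.295% lower than in both other blocks, and 18 listed genes were higher and 11 lower in place of 35 and 37. With 0.01 TP10k added, 4.48% were lower than in both blocks. At 4-fold, 0.896% were higher and 1.52% lower, and 0.613% higher and 0.295% lower than in both blocks. Leaving out each plate in turn gave 3.75% to 4.06% higher, 7.12% to 7.43% lower, 2.34% to 2.46% higher and 2.38% to 2.62% lower than in both blocks, and 35 to 36 listed genes higher and 38 to 39 lower. A gene then had to pass on fewer plates, so leaving out a plate could lower these shares only through the filter on low values. A minimum of 4000 genes left 75.2% of the Epi-like wells. Among wells of 4000 to 6000 genes 3.13% were higher and 5.64% lower, without the 14 Epi-like wells whose markers differed from the rest 3.36% and 6.39%, and without the 10 wells of columns 9 to 24 with epiblast markers 3.47% and 6.45%. Of the listed, ranked and variable genes with a mean log2 ratio of at least 1 in size, *Cldn4* alone changed sign under an alternative. It went from -1.04 to 0.16 with the mean of ln(TP10k + 1), and the cause was not tested. *Chchd10*, *Mkrn1*, *Ifitm2*, *Cd40* and *Zfp296* were not followed under the alternatives. No paired analysis was possible because the comparison has no test and 1 sample. The depth of a well is unknown, so a gene listed at 0 may be present below detection.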

Other observations

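Genes on chromosome 8 were lower in Epi-like wells as a group, a pattern seen while genes were counted by chromosome and not looked for beforehand. Their median log2 ratio to the other 3D wells was -0.31, and -0.32, -0.35 and -0.29 on plates 3, 4 and 5. The medians of the 19 other chromosomes, the Y left out, lay between -0.08 and 0.03. Against columns 9 to 16 alone the median on chromosome 8 was -0.28 (other chromosomes -0.000989 to 0.15), and against columns 17 to 24 alone -0.26 (-0.14 to 0.04). On chromosome 8, 74.1% of the genes were below 0, against 46.6% to 58.1% on the 19 others. Its shares of genes counted as lower (8.77%) and higher (1.88%) lay within those of the others (4.36% to 10.8% and 1.62% to 6.18%). Among the 120 genes of chromosome 8 with at least 1 TP10k in Epi-like wells the median was -0.25. Over the 14 alternatives, the 4-fold threshold left out, the chromosome 8 median ranged from -0.40 to -0.07, the latter without a filter on low values, and was below the lowest other chromosome under each. ESC line, block of the plates and cell type cannot be told apart here, and the cause was not tested.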
